A study of Mus musculus with 6 samples.

Results

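The nuclear genes for the mitochondrial respiratory chain were examined in the cortex of C57BL/6 mouse embryos at embryonic day 12.5, in 3 wild-type libraries (WT) and 3 libraries with a conditional knockout of both Hdac1 and Hdac2 (cKO). Members were all genes whose symbol starts with Nduf followed by a, b, c, s or v, with Cox4 to Cox8, with Uqcr or Uqcc, or with Atp5, together with Sdha, Sdhb, Sdhc and Sdhd. This gave 75 of the 12041 gene symbols in the deposited table, on 78 of its 14379 rows, and each symbol was read from its row of highest mean normalized count. By complex, 38 belong to complex I, 4 to complex II, 9 to complex III, 12 to complex IV and 12 to complex V. Of the 75, 66 encode subunits, 8 encode assembly factors, and Ndufa4l2 is a paralog of the subunit gene Ndufa4, which was counted with complex IV although it was named after complex I. The members are a family by name among the rows used, and subunit genes on no such row, such as Cox4i1, were not analysed here.

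Libraries are called by the columns of the table, which do not say which replicate is which: HC-1, HC-8, HC-10 for WT, with HC read as control, and HM-5, HM-13, HM-16 for the cKO, with HM read as mutant. Values per library are listed in this order throughout. The genotypes carry no further description in the labels, and the sources used here do not give the recombinase driver, the deleted exons, litters or any pooling of embryos. Since no label ties the libraries to separate embryos, p-values reflect only how these libraries spread, which may be partly technical. The table holds 9712556 to 11922665 reads per library. HM-13 stands apart, where the row Rn45s (ribosomal RNA) takes 29.7% of reads, compared with 0.506% to 2.48% elsewhere. The labels were checked on the targeted genes: mean FPKM (a level per length of transcript and per depth of sequencing) in the cKO was 25.6% of WT for Hdac1 and 23.6% for Hdac2, with no overlap between groups. In bulk tissue such as this, fewer cells of a type and less RNA per cell cannot be told apart.

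The respiratory chain sits in the inner mitochondrial membrane. Complex I oxidises NADH and complex II oxidises succinate, both passing electrons to ubiquinone. Complex III hands them on to cytochrome c and complex IV to oxygen, while complexes I, III and IV pump protons. Complex V, the ATP synthase, uses the proton gradient to make ATP. All of complex II and most subunits of the other complexes are encoded in the nucleus, the rest in mitochondrial DNA, so that each complex is built in a fixed stoichiometry from separately transcribed genes. The transcription factors NRF1 and those of the ETS family (GABP) are textbook regulators of the nuclear set. HDAC1 and HDAC2 are histone deacetylases of several corepressor complexes.

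Some of the promoters hold short sequence motifs, a feature that the choice by symbol did not use. RefSeq promoter windows (GRCm38.p6) were found for 63 of the 75 members, and the 250 bases before the start were searched on both strands. The NRF1 core, 10 bases rich in G and C with 1 free base, whose matches on either strand are the capitals in the lines that follow, lay in 14 of the 63 windows (22.2%), against 3.74% of all 32851 windows and 8.69% of the 6206 windows of the other tested genes. The ETS core CCGGAAG lay in 12 windows (19%), against 6.91% of all windows and 14.2% of those of other tested genes. The YY1 core AAGATGGC lay in 0, against 1.56% and 2.14%. These shares compare windows chosen differently. Each member has the window nearest the start of its row's transcript, and each other tested gene the first window listed. All windows were counted without such a choice. Among the 7 members that changed in the cKO, described by complex later, Atp5g2 held an NRF1 core and Ndufs3 an ETS core, Cox7b, Ndufb3, Ndufv3 and Sdhb held none of the 3 motifs, and Uqcrb had no window. One site is shown for each of these 2 genes and, for each complex, for the most abundant member with an NRF1 core, so that the shared core and its varying flanks can be read. Capitals mark the motif, and all are read 5′ to 3′ on the minus strand, the coding strand of each gene.
Atp5g2, NRF1, chr15:102671070-102671099: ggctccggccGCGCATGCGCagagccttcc
Ndufs3, ETS, chr2:90904730-90904759: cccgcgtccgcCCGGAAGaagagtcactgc
Ndufa8, NRF1, chr2:36049349-36049378: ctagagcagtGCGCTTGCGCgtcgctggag
Sdha, NRF1, chr13:74350231-74350260: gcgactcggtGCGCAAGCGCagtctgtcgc
Uqcc2, NRF1, chr17:27133920-27133949: gcgccttagtGCGCACGCGCcctctgcggt
Cox6a1, NRF1, chr5:115349056-115349085: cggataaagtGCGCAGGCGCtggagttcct
Atp5h, NRF1, chr11:115420041-115420070: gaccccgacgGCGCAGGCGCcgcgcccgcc
The match lay 42 bases before the RefSeq start in Atp5g2, 30 in Ndufa8, 48 in Uqcc2, 117 in Cox6a1, 141 in Atp5h and 27 for the ETS core of Ndufs3. Sdha, the flavoprotein that oxidises succinate, had 3 NRF1 matches in its window, the one shown lying 10 bases before the RefSeq start. The transcripts on the rows of Atp5g2, Ndufs3, Ndufa8 and Sdha start further upstream in GENCODE M21 than the RefSeq start, and the sites of these 4 genes lie within them. Ndufv3, which alone rose, has none of the motifs, and the stretch of 134 bases up to its start that overlaps no annotated exon (plus strand) is shown for comparison.
Ndufv3, chr17:31519981-31520114: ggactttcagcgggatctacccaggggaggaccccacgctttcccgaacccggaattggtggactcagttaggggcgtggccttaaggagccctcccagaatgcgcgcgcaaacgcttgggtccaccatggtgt
A motif match describes the letters in the window and does not show that a factor binds there.

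In the WT cortex the median level of the subunit transcripts stepped up from complex I to complex V. The 66 subunit rows fell into 15 with a mean over all libraries of 0.519 to 9.90 FPKM and 51 with 18.4 to 1304 FPKM, with none between, and the boundary of 13 FPKM used here was chosen after these values were seen. Among the 51, the median WT level was 155 FPKM in complex I (25 genes, from Ndufv3 at 16.0 to Ndufa12 at 317), 197 FPKM in complex II (4 genes, 173 for Sdhd to 276 for Sdhb) and 231 FPKM in complex III (5 genes, 182 for Uqcrfs1 to 296 for Uqcr10). It was 495 FPKM in complex IV (10 genes, 216 for Cox7b to 747 for Cox7c) and 620 FPKM in complex V (7 genes, 493 for Atp5e to 1390 for Atp5b). The ranges of complexes I, II and III overlap, and those of IV and V overlap, whereas 7 of 7 complex V genes lay above the highest gene of complexes I to III.

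**Figure D1:**
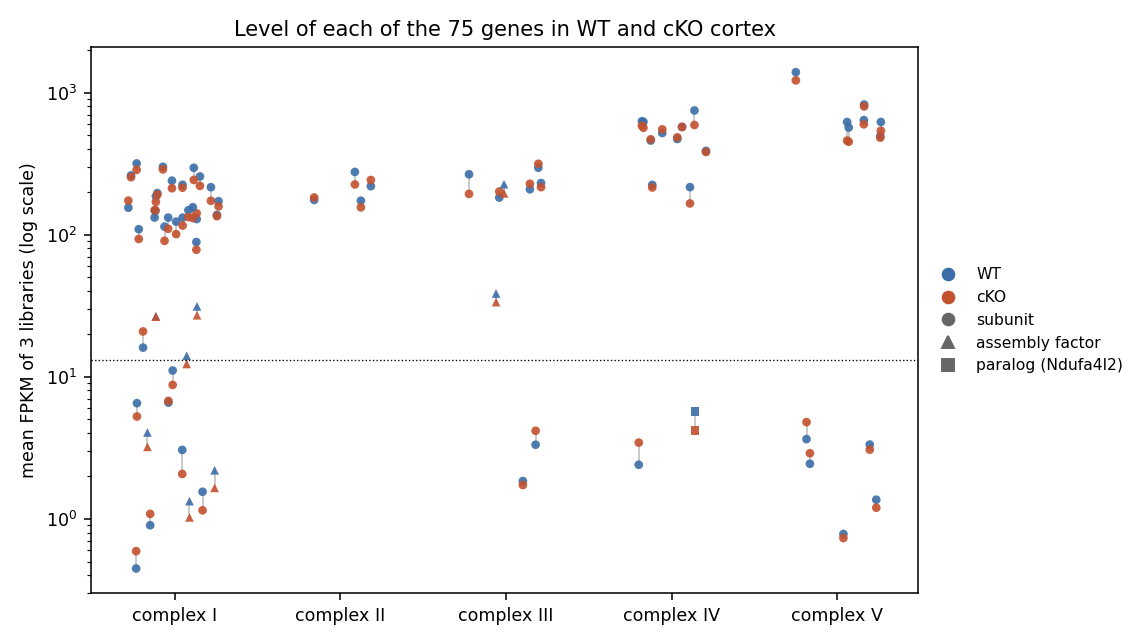
Mean FPKM of 3 libraries (y axis, log scale) for each of the 75 genes by complex (x axis), blue for WT and red for cKO, joined by a line for each gene; circles are subunits, triangles assembly factors and the square Ndufa4l2. The dotted line is at 13 FPKM, which separates 15 subunit rows from 51; complex V has a WT median of 620 FPKM among the latter and complex I of 155, and WT and cKO points lie close together for most genes.

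The 15 low rows were 7 of 32 subunits in complex I, 2 of 7 in complex III, 1 of 11 in complex IV and 5 of 12 in complex V. Their reads in single libraries run from 5 to 90, against 276 to 30681 for the others. In 3 of them, Ndufs1, Atp5f1 and Uqcr11, the transcript named on the row is non-coding in GENCODE M21 (a retained intron for the first pair, a processed transcript for Uqcr11). None of the 15 belongs to a gene with a single annotated transcript, against 8 of the 51 others. Of the 51, none is on a non-coding transcript. Each row names 1 transcript, and the part of this in the low levels was not tested.

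Between WT and cKO, most of the respiratory chain genes differed little, and with the deposited scaling 6 of the 7 called were lower in the cKO. Of the 73 tested members (Ndufv2 and Atp5c1 fell under the minimum of 1 FPKM in 3 libraries), 6 fell and 1 rose at an adjusted p under 0.05 (limma on log2(FPKM + 1), Benjamini-Hochberg over all genes). That is 9.59% called, against 18% of the 9359 genes tested, of which 8.39% were lower and 9.62% higher. The 6 of 73 lower lie near the share of all genes, and the 1 of 73 higher lies under it. On the log2(FPKM + 1) scale, the members' fold changes ran from -0.45 to 0.41 with a median of -0.13 (all genes tested: -0.01), and 53 of 73 were below 0 (all genes: 51.2%). Limma's voom on the recovered reads called 8 members, 7 lower and 1 higher, against 20.4% of all genes, 9.26% lower and 11.2% higher. At an unadjusted p under 0.05 (limma), 16 members were lower and 3 higher, which is 26.0% of members against 34.3% of all genes tested. In 17 members each cKO library lay below each WT library (background 19.6% of genes), and in 4 members, Ndufv1, Ndufv3, Sdhc and Uqcrfs1, above (19.5%).

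The size of the set's shift and the balance of calls depend on how libraries are scaled. The members' median stayed below 0 under each scaling, with 44 of 73 below 0 for totals without Rn45s and 38 for quantile normalization. With quantile normalization it lay slightly above the median of all genes. With scaling by read totals without Rn45s, 14 members were called, 6 higher and 8 lower, with a median of -0.07 and an all-gene median of 0.04. That is 19.2% of members, against 18.6% of all genes tested under that scaling. With quantile normalization 11 were called, 8 higher and 3 lower, with a median of -0.02 and an all-gene median of -0.03, and that is 15.1% of members against 19.6% of all genes. The members called higher under quantile normalization were Cox6a1, Cox8a, Ndufa1, Ndufa8, Ndufv1, Ndufv3, Sdhc and Uqcrfs1, and those lower were Atp5g2, Uqcrb and Ndufaf6. Ndufv3, Uqcrb and Atp5g2 were the 3 members called, in the same direction, under each of the 9 alternatives that keep all 6 libraries and with the deposited scaling.

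**Figure D2:**
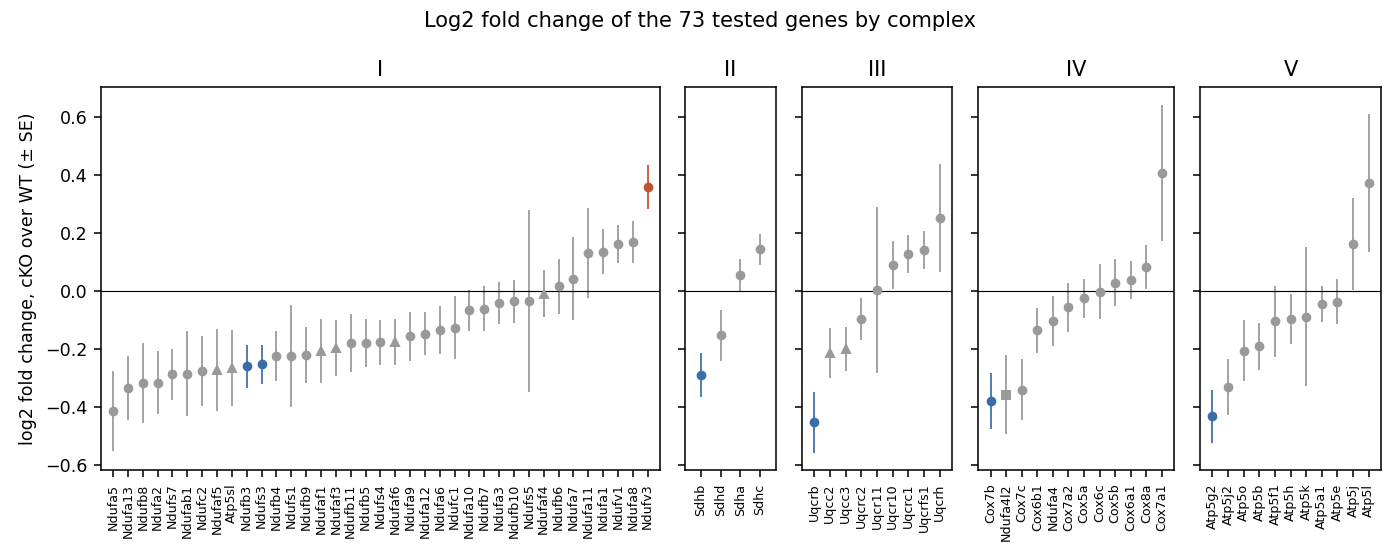
Log2 fold change of cKO over WT with its standard error (y axis) for the 73 tested genes, ordered within complexes I to V (x axis); blue marks genes that fell, red the gene that rose and grey those not past the threshold. Values run from -0.45 to 0.41. In complex I, 30 of 37 genes lie below 0, whereas complex III has 4 of 9 below 0 (all genes tested: 51.2%).

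In complex I, 2 subunit genes fell and 1 rose among 37 tested (8.11% called, against 18% of all genes tested). The median log2 fold change was -0.18, and 30 lay below 0 (all genes: 51.2%). Ndufs3, a core subunit of the peripheral arm through which electrons travel (ENSMUST00000005647, chromosome 2, 90894636 to 90904827, GRCm38), measured 163, 153 and 152 FPKM in WT libraries against 122, 139 and 131 FPKM in cKO libraries. The groups did not overlap, and the cKO mean (131 ± 8.62, SD, n = 3) was 84.0% of WT (156 ± 6.02), a log2 change of -0.25 (SE 0.07, limma adjusted p = 0.0394). Its row shares exon bases with Kbtbd4 on the opposite strand, and the sources used here do not say whether reads were counted by strand. Ndufb3, an accessory subunit of the membrane arm (ENSMUST00000027193, chromosome 1, 58586384 to 58595964), measured 141, 123 and 131 FPKM in WT libraries against 105, 117 and 107 FPKM in cKO libraries. Again each cKO library was below each WT library, the mean fell from 132 ± 9.28 to 110 ± 6.64 (83.4% of WT, log2 change -0.26, SE 0.07), and the adjusted p of 0.0495 lies just inside the threshold.

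Ndufv3, an accessory subunit of the NADH-oxidising tip of complex I (ENSMUST00000046288, chromosome 17, 31520118 to 31531331, 4 exons), was the 1 member that rose. It measured 16.6, 15.1 and 16.4 FPKM in WT libraries against 20.1, 21.7 and 20.7 FPKM in cKO libraries. The 3 cKO libraries lay close together and all above WT, with means of 16.0 ± 0.824 and 20.8 ± 0.804, a 1.30-fold rise (log2 change 0.36, SE 0.08, limma adjusted p = 0.0179). Ndufv1, the subunit that carries the NADH and flavin site and so the neighbour of Ndufv3 in the complex, measured 160, 146 and 158 FPKM in WT libraries against 163, 182 and 175 FPKM in cKO libraries. It too was higher in each cKO library than in each WT library but did not pass (log2 change 0.16, adjusted p = 0.127). The core subunit gene Ndufs7 pointed the other way without passing, at 134, 110 and 127 against 97.5, 96.5 and 108 FPKM (log2 change -0.29, adjusted p = 0.0597).

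The most abundant complex I genes did not pass. Ndufa12 measured 319, 288 and 343 FPKM in WT libraries against 283, 291 and 282 FPKM in cKO libraries (log2 change -0.15, adjusted p = 0.209), and Ndufb7 had 307, 276 and 317 against 272, 309 and 282 FPKM (-0.06, adjusted p = 0.622). Both encode accessory subunits, and in both the groups overlap, with HC-8 the lowest WT library and HM-13 the highest cKO library. Among the 4 tested core subunits of complex I the median log2 change was -0.24 with 1 called. Among the 27 accessory subunits it was -0.15 with 2 called (7.41%, all genes 18%). Of the 4 core genes, Ndufs1 is on a non-coding row with 19 to 52 reads per library (log2 change -0.22). Ndufs5 was the most scattered of those named, at 163, 87.4 and 162 FPKM in WT against 85.0, 171 and 148 FPKM in the cKO, with a log2 change of -0.03 (SE 0.31, adjusted p = 0.952).

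In complex II, which has 4 subunits and all of them nuclear, 1 subunit fell and the other 3 did not pass (all genes called: 18%). Sdhb, the iron-sulfur subunit that carries electrons from the flavin to ubiquinone (ENSMUST00000010007, chromosome 4, 140961203 to 140979193), measured 286, 250 and 293 FPKM in WT libraries against 215, 233 and 229 FPKM in cKO libraries. The mean fell from 276 ± 23.1 to 225 ± 9.66, 81.6% of WT, with no overlap (log2 change -0.29, SE 0.08, limma adjusted p = 0.0383). Its catalytic partner Sdha had 168, 176 and 182 against 181, 181 and 185 FPKM (104% of WT, adjusted p = 0.508). The membrane anchors were Sdhc, at 222, 210 and 225 against 240, 240 and 246 FPKM (111%, adjusted p = 0.108, each cKO library above WT), and Sdhd, at 192, 156 and 171 against 146, 166 and 154 FPKM (89.8%, adjusted p = 0.27). Sdhb, the most abundant of the 4 in each WT library, was below Sdhc in each cKO library.

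Complex III held the member with the lowest log2 fold change on the log2(FPKM + 1) scale. Uqcrb, a small subunit next to the ubiquinone site (ENSMUST00000021993, chromosome 13, 66900617 to 66905378), measured 284, 226 and 287 FPKM in WT libraries against 178, 201 and 201 FPKM in cKO libraries. The mean fell from 266 ± 34.7 to 193 ± 13.4, 72.8% of WT, without overlap (log2 change -0.45, SE 0.10, limma adjusted p = 0.0256). Its row shares exon bases with the predicted gene Gm10767 on the opposite strand. The Rieske iron-sulfur protein gene Uqcrfs1 had 185, 169 and 192 against 195, 206 and 202 FPKM, each cKO library above WT, but did not pass (110%, adjusted p = 0.17). The core protein gene Uqcrc1 had 198, 206 and 221 against 229, 218 and 237 FPKM (109%, adjusted p = 0.209). Uqcrc2, the other core protein gene, had 232, 212 and 248 against 211, 224 and 212 FPKM (log2 change -0.09, adjusted p = 0.396), and the most abundant, Uqcr10, had 322, 286 and 279 against 294, 342 and 309 FPKM (0.09, adjusted p = 0.472). Over the 9 tested members the median log2 change was 0.00.

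In complex IV, 1 of 12 tested genes fell (8.33% called, all genes 18%), with a median log2 change of -0.04. Cox7b, a small X-linked subunit (ENSMUST00000033582, chromosome X, 106015700 to 106022450), measured 233, 190 and 225 FPKM in WT libraries against 159, 182 and 156 FPKM in cKO libraries. Its mean fell from 216 ± 22.9 to 166 ± 13.9, 76.8% of WT, and the groups came close only at HC-8 and HM-13 (log2 change -0.38, SE 0.10, limma adjusted p = 0.0346). HC-8 and HM-16 were the libraries with high Xist, and the other X-linked members, Ndufa1 (adjusted p = 0.26) and Ndufb11 (adjusted p = 0.248), did not pass. Cox7c, the most abundant gene of the complex, measured 813, 664 and 765 FPKM in WT libraries against 541, 661 and 570 FPKM in cKO libraries (79.0% of WT, log2 change -0.34), non-overlapping by a narrow margin, with an adjusted p of 0.061 that misses the threshold. Limma's voom on the recovered reads called it.

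The isoform pairs within complex IV were far apart in level. Ndufa4 measured 659, 562 and 662 FPKM in WT libraries against 547, 613 and 591 FPKM in cKO libraries (log2 change -0.10, adjusted p = 0.442). Its paralog Ndufa4l2, known from hypoxic cells, had 6.92, 5.05 and 5.06 against 3.85, 4.46 and 4.23 FPKM, lower in each cKO library without passing (-0.36, adjusted p = 0.112). The widely expressed Cox7a2 had 234, 198 and 240 against 205, 223 and 215 FPKM (-0.06, adjusted p = 0.681). Cox7a1, the isoform of heart and skeletal muscle, had 1.46, 3.43 and 2.31 against 3.62, 2.54 and 4.15 FPKM (0.41, adjusted p = 0.264). Cox7a1 thus has the highest log2 fold change of any tested member and rests on 6 to 16 reads per library.

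In complex V, 1 of 11 tested genes fell (9.09% called, all genes 18%). Atp5g2, 1 of the genes for the c subunit that forms the rotating ring in the membrane (ENSMUST00000185641, chromosome 15, 102662864 to 102671127), measured 649, 548 and 663 FPKM in WT libraries against 433, 489 and 453 FPKM in cKO libraries. The mean fell from 620 ± 62.9 to 458 ± 28.5, 74.0% of WT, with no overlap (log2 change -0.43, SE 0.09, limma adjusted p = 0.0186). The catalytic head of the enzyme differed less: Atp5a1 had 813, 804 and 849 against 774, 812 and 810 FPKM (log2 change -0.04, adjusted p = 0.67). Atp5b, the most abundant member of all, had 1397, 1281 and 1492 against 1164, 1273 and 1215 FPKM, lower in each cKO library (87.6% of WT, adjusted p = 0.149). Atp5j2, a membrane subunit, had 600, 502 and 599 against 415, 488 and 448 FPKM (79.4% of WT), with an adjusted p of 0.0508 just outside the threshold. The median over the complex was -0.09.

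**Figure D3:**
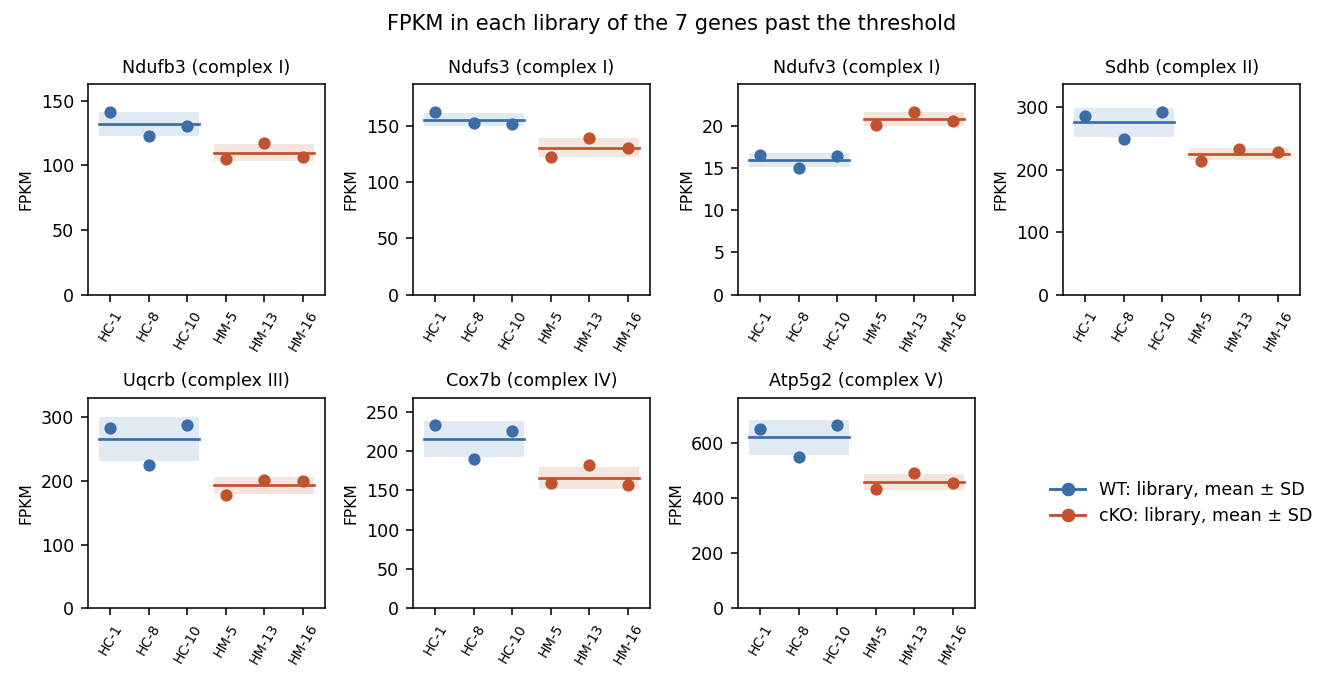
FPKM (y axis, from 0) in each of the 6 libraries (x axis) for the 7 genes past the threshold, with the group mean as a line and ± SD as a band, blue for WT and red for cKO. Ndufv3 rises from a mean of 16.0 to 20.8 FPKM and the other 6 fall, to between 72.8% (Uqcrb) and 84.0% (Ndufs3) of WT; among these 6, HC-8 is the lowest WT library in all but Ndufs3.

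Because subunits are needed in fixed proportions, each called gene except Ndufb3 was also set against another subunit of its complex in the same library. Scaling a library by a constant cannot move such a ratio. The partner genes were chosen after the values were seen, so these ratios are a description. Sdhc, Uqcrfs1 and Ndufv1 were higher in each cKO library than in each WT library. With Sdhb, Uqcrb and Ndufs3 lower in each, their ratios to these partners could not overlap between groups. Sdhb over Sdhc was 1.29, 1.19 and 1.30 in WT and 0.893, 0.970 and 0.929 in the cKO. Uqcrb over Uqcrfs1 was 1.53, 1.34 and 1.49 against 0.911, 0.978 and 0.995. In both, the first gene is the more abundant in 3 of 3 WT libraries and the less abundant in 3 of 3 cKO libraries.

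In complex I, Ndufs3 over Ndufv1 was 1.01, 1.05 and 0.961 in WT and 0.749, 0.768 and 0.745 in the cKO, while Ndufv3 over Ndufv1 was 0.103, 0.103 and 0.104 against 0.123, 0.119 and 0.118. The first ratio is lower and the second higher in the cKO, and within each group the 3 values lie close together. Cox7b over Cox5a was 0.583, 0.523 and 0.558 against 0.431, 0.459 and 0.412. Atp5g2 over Atp5a1 was 0.798, 0.681 and 0.780 against 0.559, 0.603 and 0.560.

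**Figure D4:**
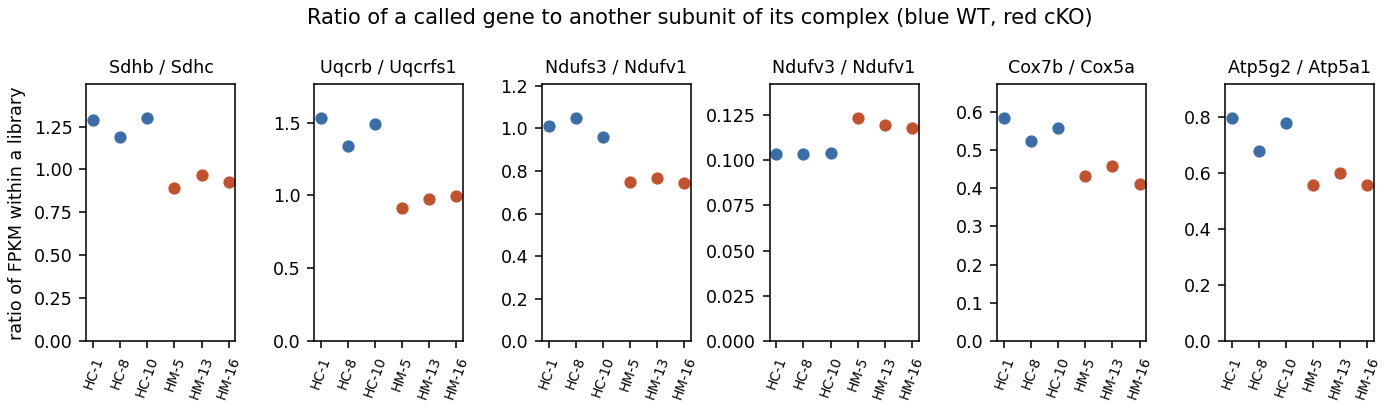
Ratio of the FPKM of a gene past the threshold to that of another subunit of the same complex (y axis, from 0) in each library (x axis), blue for WT and red for cKO. Sdhb over Sdhc is 1.19 to 1.30 in WT and 0.893 to 0.970 in the cKO. The WT and cKO points do not overlap in any of the 6 panels. For Sdhb, Uqcrb and Ndufs3 this was fixed by choosing a partner that was higher in each cKO library.

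Each called gene was also set against all other subunits of its complex summed. Sdhb was 49.1%, 46.1% and 50.6% of the summed FPKM of the other complex II genes in WT and 37.8%, 39.7% and 39.0% in the cKO. Uqcrb was 30.1%, 25.7% and 30.4% of the other complex III subunits in WT and 19.1%, 20.2% and 20.8% in the cKO. Atp5g2 was 13.9%, 13.1% and 13.9% in complex V against 11.1%, 11.3% and 11.2%, and Cox7b 4.75%, 4.52% and 4.69% in complex IV against 3.81%, 3.90% and 3.56%. Within complex I, Ndufb3 and Ndufs3 moved little against the sum: Ndufb3 was 3.13%, 3.20% and 2.92% in WT and 2.89%, 2.79% and 2.70% in the cKO. Ndufs3 was 3.68% ± 0.312 in WT against 3.34% ± 0.0231, and Ndufv3 0.356%, 0.381% and 0.357% against 0.538%, 0.503% and 0.511%. Groups did not overlap in any of the 7, although the gap for Ndufb3 and Ndufs3 is smaller than the spread between WT libraries.

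Summed over the member rows of each complex, assembly factors and Ndufa4l2 included, the groups overlapped in all 5. The 15 low subunit rows add little to these sums, and subunit genes on no row used are absent from them. The sum was 4489 ± 394 FPKM in WT and 4122 ± 292 in the cKO for complex I (91.8%), and 844 ± 45.1 against 805 ± 20.7 for complex II (95.5%). It was 1452 ± 91.7 against 1387 ± 55.5 for complex III (95.5%), 4853 ± 402 against 4581 ± 252 for complex IV (94.4%) and 5163 ± 388 against 4554 ± 251 for complex V (88.2%). With quantile normalization the sums of complexes II to V were not below WT, at 105%, 104%, 106% and 100.4%. The members took 1.53% to 1.65% of reads outside Rn45s in all libraries.

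The members moved together from library to library within each group. HC-8 was the lowest WT library in 59 of 73 members (80.8%), against 40.5% of all genes tested. Among cKO libraries HM-5 was the lowest in 56 of 73 (76.7%, all genes 34.1%) and HM-13 the highest in 56 of 73 (76.7%, all genes 33.9%). Over the 56 members of at least 13 FPKM, the median deviation from the WT mean on the log2(FPKM + 1) scale was 0.07 in HC-1, 0.06 in HC-10 and -0.13 in HC-8. In the cKO it was -0.20 for HM-5, -0.12 for HM-16 and -0.03 for HM-13, so the median of HM-13 lies above that of HC-8. Over all genes tested the same medians lay between -0.02 and 0.02. HC-8 carries the highest and HM-13 the lowest size factor in the deposited scaling (1.19 and 0.804), and the part of scaling or of Rn45s reads in this order was not tested.

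**Figure D5:**
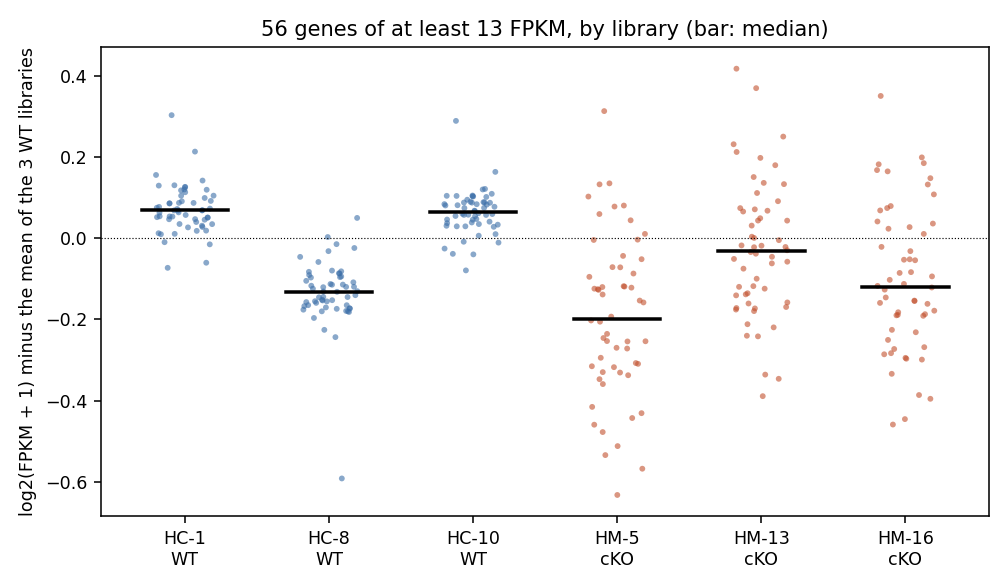
Difference of log2(FPKM + 1) from the mean of the 3 WT libraries (y axis) for the 56 genes of at least 13 FPKM in each library (x axis), blue for WT and red for cKO, with the median as a black bar. The bars lie at 0.07, -0.13 and 0.06 in the WT libraries and at -0.20, -0.03 and -0.12 in the cKO libraries, from left to right, so that the groups overlap at HC-8 and HM-13.

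Leaving out either of these libraries raised the number of members called. Without HC-8, 14 members were called, 13 lower and 1 higher (background 15.5% of genes), and 6 of the 7 were among them (not Ndufs3). Without HM-13, 13 were called, 12 lower and 1 higher (background 19.4%), all 7 among them. Leaving out another library cut the calls: 1 (Ndufv3) remained without HC-1, and 0 without HM-5, HM-16 or HC-10 (limma), where 12, 14 and 17 members had an unadjusted p under 0.05. The share of all genes called was lower in these fits too, at 12% without HC-1, 5.59% without HM-5, 5.96% without HM-16 and 9.64% without HC-10. Each of the 7 genes lost its call in at least 3 of these 6 fits, with the highest adjusted p at 0.066 for Ndufv3, 0.0848 for Atp5g2, 0.102 for Uqcrb, 0.126 for Cox7b, 0.144 for Sdhb, 0.148 for Ndufs3 and 0.168 for Ndufb3. The direction of each of the 7 was the same in all 6 fits, which was fixed beforehand because their groups do not overlap.

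The assembly factors, which help build the complexes without being part of them, lay below 0 in 8 of 8 (all genes: 51.2%). Limma with the deposited scaling called 0 of the 8 (all genes: 18%) and voom 0 (20.4%). Of the 8, 2 had an unadjusted p under 0.05 (limma, all genes 34.3%), and the median log2 change was -0.20. Ndufaf6 was called lower with quantile normalization, Uqcc2 without HC-8 and Uqcc3 without HM-13. With totals without Rn45s, Ndufaf4 turned above 0. Uqcc2 and Uqcc3, which support the making of cytochrome b in complex III, had means of 226 ± 19.3 and 38.5 ± 1.26 FPKM in WT against 195 ± 14.5 and 33.5 ± 2.71 in the cKO (adjusted p = 0.123 and 0.109). The 6 factors of complex I, Ndufaf1, Ndufaf3, Ndufaf4, Ndufaf5, Ndufaf6 and Atp5sl, had log2 changes of -0.27 to -0.01. Atp5sl is named after the ATP synthase but its GENCODE name is Dmac2, a distal membrane-arm assembly factor of complex I, and it was counted there.

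Genes that work beside the chain changed in both directions. Of 17 tested carriers and further subunits outside the symbol pattern, 3 fell and 2 rose, 29.4% called against 18% of all genes tested. Atpif1, the inhibitor of reverse ATP hydrolysis by complex V, fell from 197 ± 21.9 to 135 ± 17.2 FPKM (68.2% of WT, limma adjusted p = 0.0175), and Usmg5, a small ATP synthase subunit, to 76.8% (adjusted p = 0.0426). Coq2, an enzyme of ubiquinone synthesis, fell to 78.0% (adjusted p = 0.0211). Coq9, also of ubiquinone synthesis and named after its values were seen, rose to 123% (adjusted p = 0.0448). Etfdh, which feeds electrons from fatty acid oxidation into ubiquinone, rose to 129% (adjusted p = 0.0176).

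Among 25 tested assembly factors outside the pattern, 1 fell and 1 rose, 8% called against 18% of all genes tested. In the lists named next the share called was 12.5%, 9.09% and 15%, in that order. Cox20, a chaperone of a mitochondrially encoded complex IV subunit, fell from 186 ± 11.0 to 133 ± 7.44 FPKM (71.4%, limma adjusted p = 0.00534), and Lrpprc, which stabilises mitochondrial mRNAs, rose to 117% (adjusted p = 0.0378). Of 16 genes of the citric acid cycle and pyruvate dehydrogenase, 2 rose: citrate synthase, Cs, to 117% (adjusted p = 0.0267) and fumarase, Fh1, to 118% (adjusted p = 0.0365). Of 11 genes of mitochondrial transcription and biogenesis, 1 rose: Esrra, a nuclear receptor that drives genes of oxidative metabolism, from 16.7 ± 0.276 to 25.6 ± 1.49 FPKM, 1.54-fold (log2 change 0.59, adjusted p = 0.00355). Of 20 genes of import, carriers and cristae, 3 fell, all from the import machinery: Timm44 to 77.6% (adjusted p = 0.00805), Timm23 to 76.8% (adjusted p = 0.017) and Tomm20 to 85.1% (adjusted p = 0.0273). Esrra, Cox20 and Timm44 stayed called whichever library was left out, with limma adjusted p up to 0.0306, 0.0347 and 0.0448. The other 9 called genes named from these lists, Coq9 apart, lost the call in at least 3 of the 6 fits that leave out a library. Coq9 was not followed in those fits.

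Markers of cell types and the length of transcripts were read beside these results. The summed FPKM of cortical markers (9 of 10 in the table) was 1668 to 1963 in WT and 1585 to 1755 in the cKO. Erythroid markers (7 of 10 in the table) summed to 14600 to 19650 against 16643 to 24432, so blood RNA was present in all libraries. Microglial and macrophage markers (6 of 10) were higher in each cKO library, 69.1 to 81.0 against 51.1 to 62.6, and 2 of the 6 rose, Tyrobp and C1qb. Endothelial markers (5 of 10) summed to 73.5 to 133 against 102 to 130, and meningeal markers (8 of 9) to 231 to 474 against 258 to 415. Ventral telencephalic markers (5 of 10) summed to 28.9 to 94.6 against 35.4 to 62.7, with Gsx2 at 0 in HM-5, and in these 3 lists the groups overlapped. Members have short transcripts, with a median of 838 bases against 2682 over tested genes with a length. The median log2 change was -0.08 over all 916 tested rows under 1000 bases and 0.00 over the 7639 longer ones, while among members it was -0.09 for 45 under and -0.17 for 28 over that length. The part of cell makeup and of transcript length in the members' changes was not tested.

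In the authors' deposited table, 64 members carry an FDR and 11 of these are under 0.05, 10 lower and 1 higher. They include 6 of the 7 genes above, all but Ndufb3, together with Atp5j2, Cox7c, Ndufa13, Ndufa2 and Ndufs7. In the limma fit the last 3 had adjusted p of 0.075, 0.0855 and 0.0597. The share of all rows under 0.05 by the authors' FDR was not computed, so the 11 members have no background beside them. Reads shared between genes limit single values: 21 members' rows share exon bases with another gene, 19 of them with a gene on the opposite strand, and of the 7 called genes these are Ndufs3 and Uqcrb.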

How the data were processed

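RNA was extracted from embryonic cortex with Trizol and libraries made with a TruSeq RNA kit, per the labels' protocols. Per the submitters' processing notes, the authors listed bcl2fastq 1.8.4, STAR 2.5.4b, the build mm10, featureCounts 1.6.1, DESeq2 1.22.1 and R 3.4.1. The sources used here do not give their roles, the annotation or any row filter. The authors' deposited table gives FPKM for each library and, per the file headers, a mean normalized count (a signal averaged over libraries), a log2 fold change, a p-value and an FDR for each row. The FDR is missing for 4509 rows. The FPKM values carry size factors: dividing these out, after undoing the length scaling, gave whole reads (within 0.02 of a read) for 100% of values in each library. The recovered totals were 10998247, 11922665 and 10345264 reads for HC-1, HC-8, HC-10 in WT. For the cKO libraries HM-5, HM-13, HM-16 they were 10023061, 11473715 and 9712556 reads, counting only rows of the table.

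Genes of at least 1 FPKM in at least 3 libraries (9359) entered limma (3.58.1, run in R 4.3.3) as log2(FPKM + 1), with group as the only term, an intensity trend and Benjamini-Hochberg adjustment over all genes tested (threshold 0.05). The pseudocount of 1 understates the fold change of low genes. The fit was tested on simulated data. Alternatives were other pseudocounts (0.1 and 5), no filter, a minimum of 5 FPKM, rows summed per symbol, no trend, voom on the recovered reads, scaling by totals without Rn45s, quantile normalization and leaving out each library. A p-value for the members as a set was not computed.

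The members and lists were chosen with earlier results of these data known. Named by rule were Hdac1 and Hdac2, each called member, the 2 most abundant members of each complex, isoform pairs and up to 4 called genes of each companion list. Other members were named after their values were seen. Positions and overlaps come from GENCODE M21 (GRCm38), matched by transcript for 75 of 75 members, and promoter sequences from RefSeq (GRCm38.p6).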

Additional observations from a re-analysis of the deposited data

How the results depend on the processing

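Against 7 members called, 14 were called with totals without Rn45s, 11 with quantile normalization and 3 with no intensity trend (Ndufv3, Atp5g2 and Uqcrb), where 18.6%, 19.6% and 15.8% of all genes were called. Counts of 6 to 8 came from the other pseudocounts, filters, summed rows and voom. Complex I, with 3 called, had 6 with totals, 5 with quantile and 1 with no trend. Complex II, with 1, had 2 with totals, 0 with no trend and 1 with quantile, where Sdhc was called higher and Sdhb lost its call. Complex III, with 1, had 2 with totals and 2 with quantile. Complex IV, with 1, had 2 with voom or totals (both lower), 2 with quantile (Cox6a1 and Cox8a, higher, without Cox7b) and 0 with no trend. Complex V, with 1, had 2 with a minimum of 5 FPKM, voom or totals. With no trend, 14 members had an unadjusted p under 0.05 (limma). Leaving out 1 library gave 0 to 14 members called, 0 to 7 in complex I, 0 to 1 in complex II, 0 to 2 each in complexes III, IV and V, and 511 to 1773 of all genes against 1685. Summed FPKM of complexes II, III, IV and V was 105%, 104%, 106% and 100.4% of WT with quantile normalization. With quantile normalization 17 of 73 log2 changes turned from below to above 0 and 2 the other way (Ndufa7 and Uqcr11). Among the 17 were Ndufb7 (0.043), Ndufa4 (0.071), Atp5b (0.028), Atp5a1 (0.18), Cox7a2 (0.061), Ndufs5 (0.064) and Uqcrc2 (0.046). With totals 9 turned from below to above 0, among them Atp5a1 (0.017), Cox7a2 (0.0031) and Ndufs5 (0.026), and without 1 library Ndufs5 ran from -0.33 to 0.27. The cause was not tested, except that leaving out a library leaves fewer samples. Members under 13 FPKM, resting on few reads, gave 0 calls among 17 tested with limma and 0 with voom, with 2 at an unadjusted p under 0.05. No paired analysis was possible because the columns carry no replicate number.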
